A study of Homo sapiens with 6 samples.

Results

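The 10 genes described here encode secreted signals that raise, recruit or arouse blood cells, or take part in receiving them, and were followed in CAL62 cells, a human cell line from an anaplastic thyroid carcinoma (ATC). They are the colony-stimulating factor genes CSF1, CSF2 and CSF3, the IL-6 family ligands IL6, IL11 and LIF, the IL-1 ligands IL1A and IL1B, the gene of tumour necrosis factor TNF, and IL1RAP, which encodes the accessory chain of the IL-1 receptor. They were chosen by name, with earlier results of these data known. Each Ensembl identifier of the count table was matched to its symbol, and where rows shared an identifier the row with most counts was taken. This gave 10 genes of 39168 identifiers, and all 10 were among the 12821 genes with enough counts to be tested. The series holds 6 RNA libraries of wild-type CAL62 cells, all collected after 48 h. In 3 libraries the cells had received 50 nM erianin, a natural compound from Dendrobium orchids, and in 3 they had received DMSO, its solvent, alone. The question was how the transcriptome of these ATC cells differs with the drug. All libraries come from 1 cell line, 1 dose and 1 time. The labels number 3 replicates per group, but do not say whether these were separate experiments or were started from separate cultures. The p-values therefore measure the spread between these libraries.

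These proteins act in small amounts on neighbouring cells. M-CSF, GM-CSF and G-CSF, the products of CSF1, CSF2 and CSF3, drive the growth and maturation of macrophages, of macrophages with granulocytes, and of neutrophils. IL-6, IL-11 and LIF each bind a receptor chain of their own and then signal through the shared chain gp130 to the JAK kinases and STAT3, while IL-1 and TNF signal through adaptor proteins to NF-kB and the MAP kinases. Their messengers are mostly short-lived, because proteins such as tristetraprolin bind AU-rich stretches in them. Carcinoma cells, anaplastic thyroid carcinoma among them, are known to make several of these factors.

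Promoter sequences of RefSeq (GRCh38.p14), of 250 bases up to the base before the annotated start, were found for 7 of the 10 genes. They are shown for CSF2, which rose with erianin, and for IL11 and TNF, which were higher in every erianin library without passing the test, because none of these 3 windows holds an annotated exon. Capitals mark a match to a searched motif on either strand. CSF2 lies at chr5:132073539-132073788 on the plus strand, IL11 at chr19:55370464-55370713 on the minus strand and TNF at chr6:31575315-31575564 on the plus strand, and each sequence reads 5′ to 3′ in the direction of its gene.
CSF2: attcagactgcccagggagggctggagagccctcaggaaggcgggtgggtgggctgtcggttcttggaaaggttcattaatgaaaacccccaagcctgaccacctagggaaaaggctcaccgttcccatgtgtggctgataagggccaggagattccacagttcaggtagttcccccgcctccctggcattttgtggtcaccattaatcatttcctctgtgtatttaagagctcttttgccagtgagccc
IL11: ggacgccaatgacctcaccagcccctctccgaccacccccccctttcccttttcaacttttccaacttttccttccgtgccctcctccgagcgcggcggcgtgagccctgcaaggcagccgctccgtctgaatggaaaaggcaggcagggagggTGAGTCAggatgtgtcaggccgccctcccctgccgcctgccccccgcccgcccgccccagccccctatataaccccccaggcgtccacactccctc
TNF: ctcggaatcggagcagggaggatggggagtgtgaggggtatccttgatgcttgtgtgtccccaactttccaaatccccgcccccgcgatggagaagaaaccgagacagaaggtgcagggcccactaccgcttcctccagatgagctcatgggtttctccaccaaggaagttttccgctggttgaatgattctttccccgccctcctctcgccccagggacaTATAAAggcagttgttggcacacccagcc

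The promoters were searched on both strands for 4 motifs, where N is any base: the NF-kB motif GGGA, N, TT, N and CC in a row, the AP-1 motif TGANTCA, the TATA box TATAAA and the cyclic AMP response element TGACGTCA. No pair of matches in a promoter overlapped. Of 35116 RefSeq promoters of the same length, 1.26% held the NF-kB motif, 6.57% the AP-1 motif, 10.7% the TATA box and 1.65% the cyclic AMP response element. Counted back from the start, IL11 had an AP-1 match at position -96 and TNF a TATA box at position -29. IL6 had an NF-kB match at position -73. IL1A, with 2 annotated starts, had AP-1 matches at positions -105 and -55 before its downstream start. The match at -105 is the same site as the match at position -12 before its upstream start, where a TATA box also lay at position -239. The windows before the upstream and the downstream start hold 97 and 148 bases of annotated exon. The windows of CSF2, IL1B and IL1RAP held none of the 4 motifs as written. A match is a description of letters, and neither a match nor its absence tells whether a factor bound there.

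Between 25776301 and 34107727 reads per library fell on named genes. DMSO replicate 3 stood apart: the chi-square of its counts per gene against the other DMSO libraries was 90.6 and 104, whereas these differed from each other by 4.35 and the erianin libraries by 3.8 to 4.8. DMSO replicates 1 and 2 differed from the erianin libraries by 53.5 to 65.8. On this measure DMSO replicate 3 lay farther from its own group than the other DMSO libraries lay from the treated ones. What sets this library apart was not tested, and results that rest on it are given with and without it. Leaving it out lowered the biological coefficient of variation in edgeR from 0.139 to 0.0421. Over 9 markers of epithelial and thyroid cells, the summed level was 2700 to 3210 CPM (counts-per-million of the library) with DMSO and 2560 to 2710 with erianin. Only 5 of these markers had enough counts to be tested. Most of the sum came from KRT8, KRT18 and PAX8, while NKX2-1 and TSHR were at 0 in all libraries, and PAX8 fell with erianin (log2 -0.66, edgeR adjusted p = 0.00403). Over 12 leukocyte markers the sum was 2.44 to 3.67 CPM with DMSO and 3.84 to 5.88 CPM with erianin, most of it from CD14. The pan-leukocyte gene PTPRC had at most 0.172 CPM, FCGR3A and MS4A1 were at 0, and the leukocyte markers with enough counts, CD14 (log2 0.54, edgeR adjusted p = 0.2) and CD79A (0.19, adjusted p = 0.809), were not called.

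Genes were called when the Benjamini-Hochberg adjusted p of edgeR's quasi-likelihood test over all tested genes was under 0.05 and the log2 fold change, erianin over DMSO, exceeded 0.5 in size. Of the 10 genes, 4 rose with erianin (CSF1, CSF2, CSF3 and IL1A) and 0 fell. Over all tested genes, 5.37% were called higher and 3.36% lower. At an unadjusted p under 0.05, 1 of the 10 genes (LIF) was lower, and DESeq2 called 0 lower. All 3 erianin libraries lay above all 3 DMSO libraries for 8 of the genes, and below them for IL6 and LIF; over all tested genes, 19.5% lay wholly above and 19.3% wholly below. The median log2 fold change of the 10 genes was 0.69, against 0.00 over all tested genes. The 10 genes were chosen with earlier results of these data known. This difference and the counts above therefore describe these genes and do not test them as a group. Without DMSO replicate 3, 7 genes were called higher, with the addition of IL1B, TNF and IL1RAP, where the background was 11.4% higher and 6.11% lower. In these bulk libraries, fewer cells of a kind and less RNA per cell cannot be told apart.

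**Figure D1:**
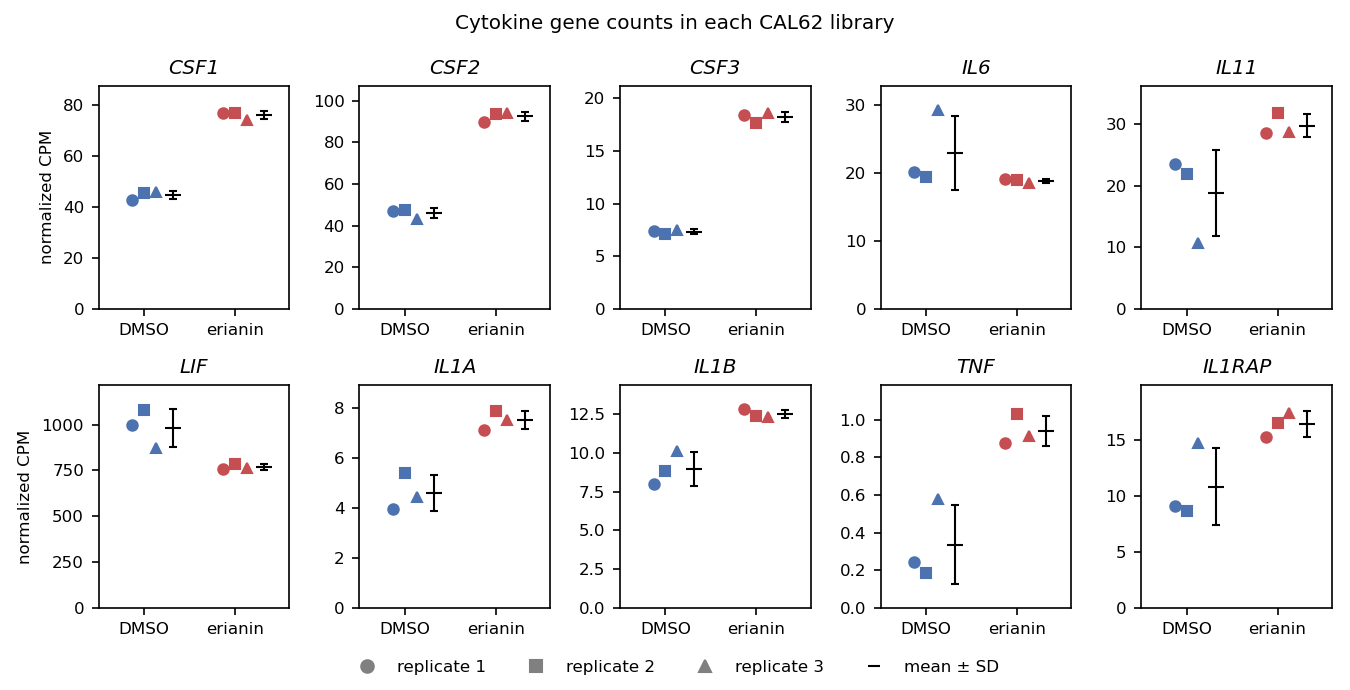
Normalized CPM of each of the 10 genes on linear axes from 0, with 1 point per library (shape gives the replicate, colour the group) and the mean with its SD beside them (n = 3 per group). CSF1, CSF2 and CSF3 form tight and separate groups, while DMSO replicate 3, the blue triangle, lies away from the other DMSO libraries for IL6, IL11, TNF and IL1RAP.

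The colony-stimulating factor genes were the 3 with the smallest adjusted p of the 10, and all rose. CSF2, the gene of GM-CSF, is ENSG00000164400 on chromosome 5 from 132073790 to 132076170 (GRCh38, GENCODE release 29). It had 47.2, 47.7 and 43.2 CPM in DMSO replicates 1, 2 and 3 and 90.0, 93.6 and 94.2 CPM in erianin replicates 1, 2 and 3. No erianin library came near the DMSO range. The fold change was 2.01 (log2 1.01, SE 0.08, 95% interval 0.83 to 1.19, edgeR adjusted p = 0.00102).

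CSF3 (ENSG00000108342, chromosome 17 from 40015361 to 40017813) encodes G-CSF, the growth factor of neutrophils. Its level was 7.43, 7.06 and 7.48 CPM in the DMSO replicates and 18.4, 17.7 and 18.6 CPM in the erianin replicates. The groups were far apart and each varied little. CSF3 rose 2.49-fold (log2 1.32, SE 0.10, 95% interval 1.09 to 1.55, edgeR adjusted p = 0.00102).

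CSF1 (ENSG00000184371, chromosome 1 from 109910242 to 109930992) encodes M-CSF, on which macrophages depend. It had 42.9, 45.6 and 46.0 CPM with DMSO and 77.2, 77.2 and 74.2 CPM with erianin. The erianin libraries were again all higher, though by a smaller factor. The increase was 1.70-fold (log2 0.76, SE 0.07, 95% interval 0.59 to 0.94, edgeR adjusted p = 0.00205). These 3 genes were also called in each of the 6 fits that left out 1 library, and without DMSO replicate 3 the log2 differences were 0.96 for CSF2, 1.33 for CSF3 and 0.78 for CSF1.

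None of the IL-6 family ligand genes passed, and they did not share a direction. In edgeR, 2 of the 3 (IL11 and LIF) had an unadjusted p under 0.05, and DESeq2 called 0 of them. LIF (ENSG00000128342, chromosome 22 from 30240447 to 30246851), whose product keeps many kinds of stem and precursor cells from maturing, had 1000, 1080 and 871 CPM with DMSO and 757, 785 and 761 CPM with erianin. It was lower in every erianin library. Its adjusted p in edgeR was 0.0386, but its log2 difference of -0.36 (SE 0.09, 95% interval -0.57 to -0.15) was under the threshold of size, as was its value of -0.44 without DMSO replicate 3.

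IL6 (ENSG00000136244, chromosome 7 from 22725884 to 22732002), the gene of a fever-inducing and acute-phase cytokine, had 20.1, 19.4 and 29.2 CPM with DMSO and 19.1, 18.9 and 18.5 CPM with erianin. Apart from DMSO replicate 3 the libraries lay close together, although no erianin library reached the lowest DMSO one. The log2 difference was -0.28 (SE 0.17, 95% interval -0.67 to 0.10, edgeR adjusted p = 0.291). Without DMSO replicate 3 it was -0.07 (95% interval -0.24 to 0.10), so that an increase of the size seen for the colony-stimulating factor genes lies outside the interval in both fits.

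IL11 (ENSG00000095752, chromosome 19 from 55364389 to 55370463), whose product acts on stromal cells and on precursors of platelets, had 23.6, 22.0 and 10.7 CPM with DMSO and 28.6, 31.9 and 28.8 CPM with erianin. The low value of DMSO replicate 3 made up much of the gap. The log2 difference was 0.67 (SE 0.27, 95% interval 0.05 to 1.29, edgeR adjusted p = 0.135) with all libraries and 0.39 (95% interval 0.23 to 0.54) without that one, and neither fit called it.

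The genes of the IL-1 ligands were both higher in every erianin library, and IL1A was called. IL1A (ENSG00000115008, chromosome 2 from 112773915 to 112784590) encodes IL-1 alpha, an alarm signal set free from damaged cells. It had 3.98, 5.39 and 4.43 CPM with DMSO and 7.14, 7.90 and 7.54 CPM with erianin. IL1A rose 1.63-fold (log2 0.71, SE 0.15, 95% interval 0.36 to 1.05, edgeR adjusted p = 0.0209). The call was less stable than those of the colony-stimulating factor genes: it stood in 2 of the 6 fits that left out 1 library, with log2 differences of 0.61 to 0.83, and it was lost without DMSO replicate 1 (0.61) or any of erianin replicates 1 (0.73), 2 (0.67) and 3 (0.70).

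IL1B (ENSG00000125538, chromosome 2 from 112829751 to 112836903) encodes IL-1 beta, which is made as a precursor and cut by caspase-1. It had 7.96, 8.81 and 10.1 CPM with DMSO and 12.8, 12.4 and 12.3 CPM with erianin. Every erianin library was above every DMSO library, and the DMSO values were more spread. The adjusted p in edgeR was 0.0398, and the log2 difference of 0.47 (SE 0.12, 95% interval 0.19 to 0.76) missed the threshold of size by little. Without DMSO replicate 3 it was 0.56 and was called.

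TNF (ENSG00000232810, chromosome 6 from 31575567 to 31578336), the gene of a cytokine that can drive inflammation or cell death, was close to the limit of counting. It had 6, 6 and 18 counts with DMSO and 30, 36 and 32 counts with erianin, or 0.246, 0.185 and 0.578 CPM against 0.878, 1.03 and 0.914 CPM. The groups did not overlap, but DMSO replicate 3 stood between the other DMSO libraries and the erianin libraries. The log2 difference was 1.46 (SE 0.41, 95% interval 0.51 to 2.41) with an adjusted p of 0.0523 in edgeR, and 2.13 (95% interval 1.14 to 3.12) without DMSO replicate 3, where it was called. Its interval was the widest of the 10 genes.

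IL1RAP (ENSG00000196083, chromosome 3 from 190514051 to 190659750) encodes the chain that joins the IL-1 receptor and lets it signal. It had 9.11, 8.60 and 14.7 CPM with DMSO and 15.2, 16.5 and 17.4 CPM with erianin. As with TNF, DMSO replicate 3 was the DMSO library nearest to the erianin libraries. The log2 difference was 0.60 (SE 0.21, 95% interval 0.11 to 1.08, edgeR adjusted p = 0.0986), and without DMSO replicate 3 it was 0.89 and was called.

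**Figure D2:**
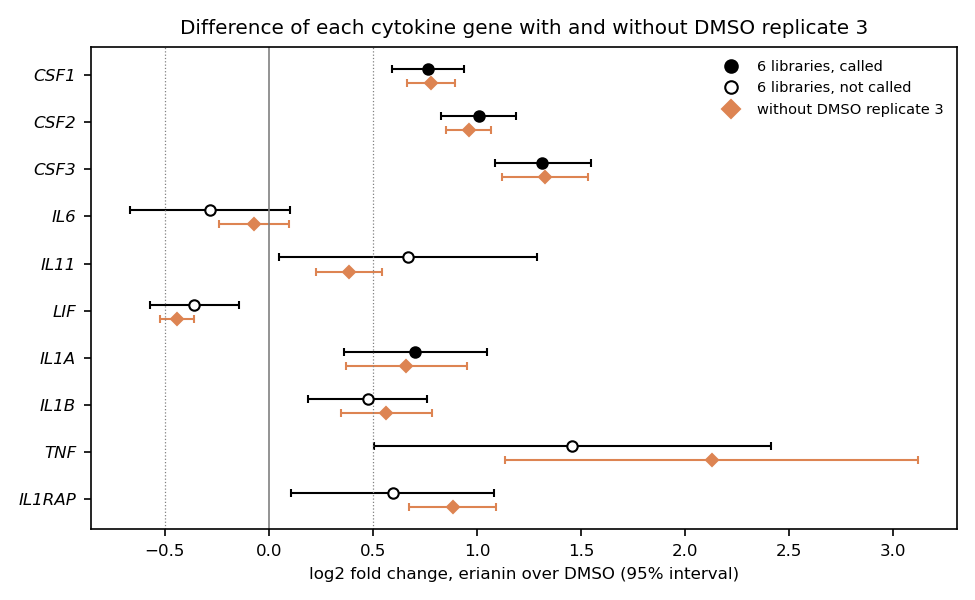
Log2 fold change of each gene, erianin over DMSO, with its 95% interval, from all 6 libraries (circles, filled where called) and without DMSO replicate 3 (diamonds). Dotted lines mark 0.5 in either direction. The values of CSF1, CSF2 and CSF3 hardly move when that library is left out, whereas TNF moves from 1.46 to 2.13 and IL11 from 0.67 to 0.39.

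Some of these genes share exon bases with other annotated genes: IL6 shares 428 bases with AC073072.1 and 46 with STEAP1B, both on the other strand, of which the first had 0 counts and STEAP1B 34 counts in all libraries together. The genes that share exon bases with LIF (LIF-AS1 and AC004264.1) or IL1RAP (AC108747.1) had 0 counts. Whether counting used the strand is not given in the sources used here.

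Levels were compared between genes as RPKM, the CPM divided by the kilobases of merged exon, since the deposited TPM divide by a longer length for genes with many transcripts. LIF was the most abundant of the 10 messengers, at 248 ± 26.3 RPKM with DMSO and 193 ± 3.82 with erianin (SD, n = 3). CSF2 followed with 58.5 ± 3.17 and 118 ± 2.88 RPKM. Between these genes the gap in level thus narrowed, with LIF lower and CSF2 higher in each erianin library.

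The other genes were expressed at lower levels with DMSO. IL6 had 11.1 ± 2.64 RPKM, CSF1 8.27 ± 0.315 and IL11 7.03 ± 2.63, and the libraries of CSF1 and IL11 overlapped. CSF3 (3.30 ± 0.105) and IL1B (2.90 ± 0.355) overlapped too, and below them came IL1A (2.17 ± 0.339), IL1RAP (0.936 ± 0.295) and TNF (0.201 ± 0.126). With erianin no neighbours in the order overlapped. CSF1 was at 14.1 ± 0.317 RPKM, IL11 at 11.2 ± 0.697, IL6 at 9.10 ± 0.147, CSF3 at 8.21 ± 0.215, IL1B at 4.03 ± 0.0778, IL1A at 3.54 ± 0.178, IL1RAP at 1.42 ± 0.0979 and TNF at 0.561 ± 0.0475. IL6 thus stood at rank 3 with DMSO and at rank 5 with erianin. In the deposited TPM, LIF and CSF2 also led in both groups, but IL6 was at rank 5 with DMSO (17.3 TPM) and at rank 6 with erianin (16.4 TPM).

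The receptors through which these factors act were measured in the same cells. Of 12 receptor genes, 9 had enough counts to be tested and 3 rose (IL6R, IL1R2 and TNFRSF1B), against 5.37% of all tested genes. DESeq2 called 5 of the receptor genes higher. The count depended on single libraries. Without DMSO replicate 3, 7 receptor genes were called higher, where the background was 11.4%. The count was 3 without DMSO replicate 1, 2 without DMSO replicate 2, 0 without erianin replicate 1 or 2, and 1 without erianin replicate 3. The receptor genes of the colony-stimulating factors were nearly silent. CSF3R had 0 counts in all 6 libraries, which allows up to 3 counts, or 0.0857 to 0.123 CPM, in each. CSF2RA had 0 to 2 counts and CSF2RB 0 to 4 counts per library. CSF1R had 1, 7 and 5 counts with DMSO and 14, 23 and 15 with erianin (log2 1.74, SE 0.50, edgeR adjusted p = 0.0572). It was called without DMSO replicate 3, with a log2 difference of 1.81 (95% interval 0.50 to 3.12). The ligand genes, by contrast, had at least 181 counts in every library.

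For the IL-6 family, the shared chain gene IL6ST had 42.0, 38.8 and 74.0 CPM with DMSO and 60.6, 71.7 and 69.7 CPM with erianin. DMSO replicate 3 lay above all erianin libraries and the other DMSO libraries below them. IL6ST was not called with all libraries (log2 0.38, SE 0.24, edgeR adjusted p = 0.318), and without DMSO replicate 3 it was called higher, with a log2 difference of 0.74 (95% interval 0.60 to 0.87). IL6R, which binds IL-6 itself, rose from 7.31, 6.10 and 4.88 CPM to 11.1, 12.7 and 9.79 CPM (log2 0.88, SE 0.18, edgeR adjusted p = 0.0182), and its log2 difference was 0.74 without DMSO replicate 3. LIFR, the receptor chain of LIF, was at 2.05 to 2.71 CPM with DMSO and 3.16 to 4.0 CPM with erianin (log2 0.65, edgeR adjusted p = 0.054). LIFR was called without DMSO replicate 3, with a log2 difference of 0.57 (95% interval 0.16 to 0.97). IL11RA was at 1.97 to 2.77 and 2.52 to 2.88 CPM with DMSO and erianin (log2 0.16, edgeR adjusted p = 0.615) and was called in neither fit.

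Among the receptors of IL-1, IL1R1, which signals, had 4.93, 4.71 and 8.60 CPM with DMSO and 7.61, 6.87 and 7.91 CPM with erianin. The highest of all 6 libraries was DMSO replicate 3, and the other DMSO libraries lay below those of erianin. IL1R1 was not called with all libraries (log2 0.29, edgeR adjusted p = 0.457) and was called higher without DMSO replicate 3, at a log2 difference of 0.63 (95% interval 0.35 to 0.91). IL1R2, a decoy that binds IL-1 without signalling, rose from 4, 4 and 2 counts to 18, 22 and 22 counts (log2 2.34, SE 0.41, edgeR adjusted p = 0.0116), with a log2 difference of 2.04 without DMSO replicate 3. The TNF receptor genes differed in direction. TNFRSF1B, the receptor found mainly on blood and endothelial cells, rose from 1.97, 2.96 and 2.25 CPM to 5.53, 5.70 and 4.63 CPM (log2 1.13, SE 0.19, edgeR adjusted p = 0.0107), and the value without DMSO replicate 3 was 1.07. TNFRSF1A, the widely expressed death domain receptor, was far more abundant and was at 205 to 219 CPM with DMSO and 155 to 162 CPM with erianin, with a log2 difference of -0.40 (SE 0.07, edgeR adjusted p = 0.00923) that was under the threshold of size, as was its value of -0.42 without DMSO replicate 3.

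**Figure D3:**
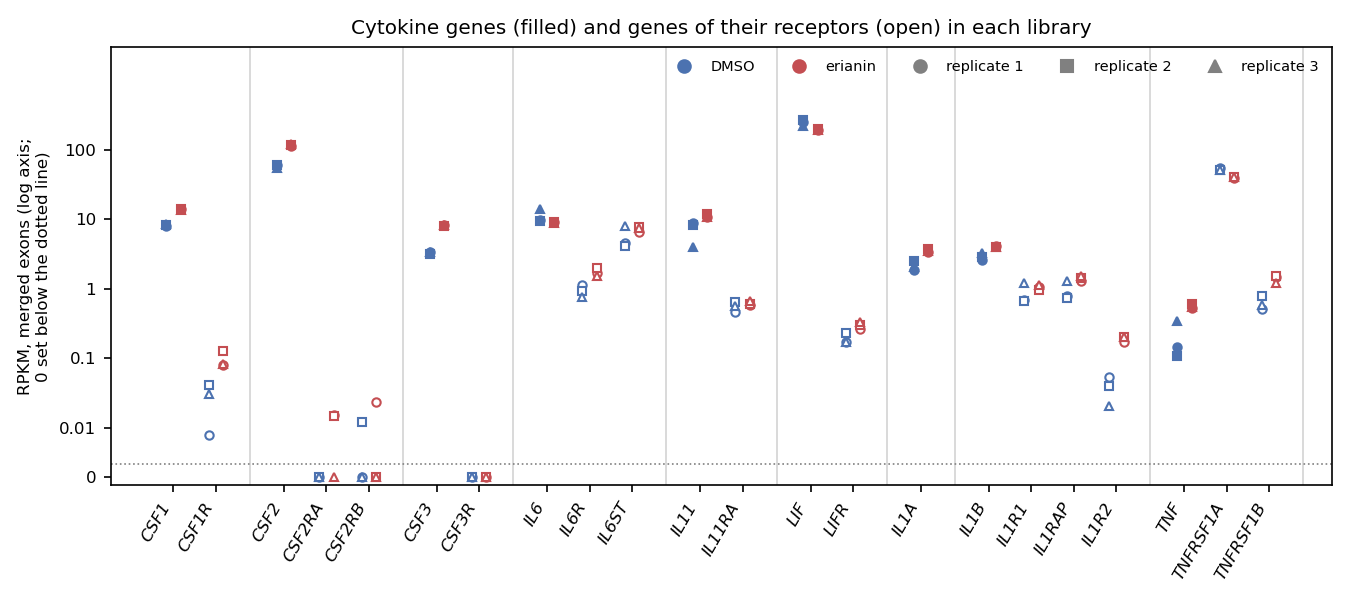
RPKM by merged exon length of each cytokine gene (filled points) and the genes of its receptors (open points) in each library, on a log axis with 0 placed below the dotted line; receptors that ligands share, such as IL6ST and IL1R1, are drawn once. Ligand genes CSF1, CSF2 and CSF3 lie high above CSF1R, CSF2RA, CSF2RB and CSF3R, whereas IL6ST and TNFRSF1A are well expressed.

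Around these 10 genes, 117 genes of 8 lists were examined, the receptors included; 90 had enough counts, 16 rose and 5 fell. Their median log2 fold change was 0.06, and over all tested genes 5.37% were called higher and 3.36% lower. Without DMSO replicate 3, 22 of the list genes were called higher and 8 lower, where the background was 11.4% higher and 6.11% lower. Leaving out any other single library gave 1 to 8 list genes higher and 0 to 3 lower. In the rest of the IL-6 family, 6 of 10 genes were tested. CNTF, a factor that keeps neurons alive, rose from 0.411, 0.308 and 0.225 CPM to 0.966, 0.973 and 0.942 CPM (log2 1.62, SE 0.30, edgeR adjusted p = 0.0139). Its DMSO libraries held 10, 10 and 7 counts. CLCF1, another ligand that signals through gp130, fell from 55.3, 53.5 and 52.2 CPM to 37.3, 38.8 and 36.6 CPM (log2 -0.52, SE 0.08, edgeR adjusted p = 0.00747). CNTF and CLCF1 were each called in 2 of the 6 fits that left out 1 library. In the rest of the IL-1 family, 4 of 13 genes were tested and IL18R1, a chain of the IL-18 receptor, rose (log2 0.95, SE 0.24, edgeR adjusted p = 0.0401). IL18R1 was called in only 1 of the 6 fits that left out 1 library.

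Of 17 other interleukins and growth factors of blood cells, 8 were tested, 4 rose and 1 fell. Over all tested genes, 5.37% were called higher and 3.36% lower. In this list, 0 were called higher or lower without DMSO replicate 1 or without any 1 erianin replicate. Without DMSO replicate 2, 2 were higher and 0 lower, and without DMSO replicate 3, 5 were higher and 1 lower. With DMSO replicate 3 left out, 11.4% of all tested genes were called higher and 6.11% lower. IL23A, the p19 chain of IL-23, rose from 10.2, 11.3 and 8.51 CPM to 15.9, 14.1 and 16.5 CPM (log2 0.64, edgeR adjusted p = 0.0221). KITLG (log2 0.98, edgeR adjusted p = 0.0358), the gene of stem cell factor, IL12A (1.61, adjusted p = 0.037), a chain of IL-12, and IL7 (0.64, adjusted p = 0.0445), a growth factor of lymphocytes, rose as well. LTB, which encodes lymphotoxin beta, a relative of TNF, fell from 29.1, 30.6 and 22.3 CPM to 17.6, 15.7 and 16.3 CPM (log2 -0.72, edgeR adjusted p = 0.0155).

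Of 14 genes that process or release cytokines, such as caspase-1, the TNF-shedding protease ADAM17 and gasdermin D, 12 were tested. Against 5.37% higher and 3.36% lower over all tested genes, 0 of the 12 were called in edgeR. Of these, 4 had an unadjusted p under 0.05 and 2, FURIN and RHBDF2, an adjusted p under 0.05 with a difference under the threshold of size, and DESeq2 called 0. Without DMSO replicate 3, CASP1 was called higher (log2 0.78) and GSDMD lower (log2 -0.61); these 4 genes are named because of those results. GSDMD had 158, 154 and 72.5 CPM in the DMSO libraries and 96.2 to 107 CPM in the erianin libraries.

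Of 17 JAK, STAT and SOCS genes, all tested, 1 was called higher and 1 lower. These counts are near the shares over all tested genes, 5.37% higher and 3.36% lower. SOCS1, an inhibitor of JAK kinases that cytokines induce, rose from 1.07, 0.955 and 0.899 CPM to 2.52, 2.43 and 2.63 CPM (log2 1.38, SE 0.18, edgeR adjusted p = 0.00504). SOCS2, an inhibitor of growth hormone signalling, fell from 28.2, 32.0 and 41.3 CPM to 20.9, 21.6 and 21.5 CPM (log2 -0.66, SE 0.15, edgeR adjusted p = 0.0237). SOCS1 was called in each of the 6 fits that left out 1 library, and SOCS2 in 2 of them. The list as a whole was centred near 0, with a median log2 fold change of 0.07.

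Of 18 adaptors and kinases of the IL-1 and TNF receptors, all tested, 3 rose and 2 fell. The shares over all tested genes were 5.37% higher and 3.36% lower. BIRC3 (log2 0.69, edgeR adjusted p = 0.0245), TRAF1 (0.57, adjusted p = 0.0186) and the kinase gene MAP3K8 (0.54, adjusted p = 0.0314) rose, and BIRC3 and TRAF1 are known targets of NF-kB. TRAF1 was at 0.48, under the threshold of size, without DMSO replicate 3. In this list, 0 genes were called higher without DMSO replicate 1 or without any 1 erianin replicate, and 1 was without DMSO replicate 2. RIPK1, the kinase at the TNF receptor, fell by 0.61 on the log2 scale (edgeR adjusted p = 0.00875) and TAB1, a partner of the kinase TAK1, fell by 0.53 (adjusted p = 0.00713). The calls of RIPK1 and TAB1 were lost without erianin replicate 2 or 3. The median of this list was -0.03.

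Of 16 genes that bind AU-rich stretches or break down cytokine messengers, all tested, 3 rose, where 5.37% of all tested genes were called higher. In this list, the number called higher was 0 without DMSO replicate 1 or without any 1 erianin replicate. It was 2 without DMSO replicate 2 and 4 without DMSO replicate 3. ZFP36, which encodes tristetraprolin, rose from 77.1, 67.6 and 96.5 CPM to 118, 124 and 119 CPM (log2 0.58, SE 0.13, edgeR adjusted p = 0.0242). Its relative ZFP36L2 rose by 0.59 on the log2 scale (adjusted p = 0.0195). These proteins speed decay, whereas ARID5A, which protects the IL-6 messenger, also rose (log2 0.90, edgeR adjusted p = 0.0392). The list thus holds called genes of opposed function.

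**Figure D4:**
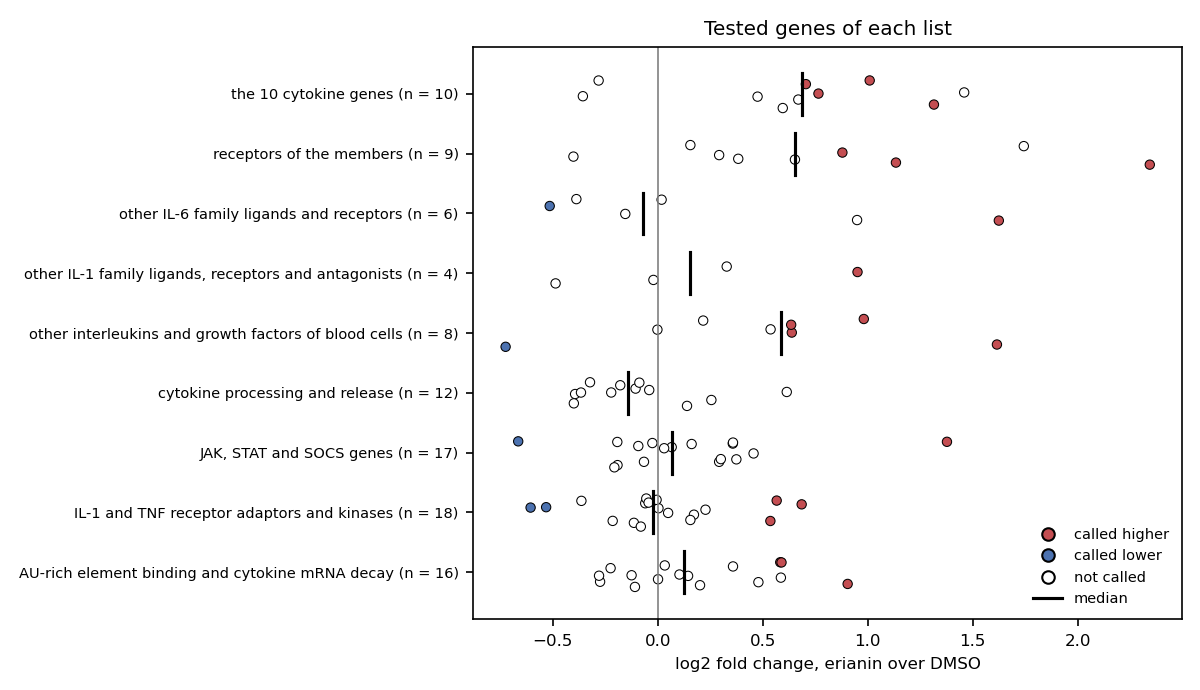
Log2 fold change, erianin over DMSO, of each tested gene in the 10 cytokine genes and in the 8 lists around them, with called genes coloured and the median of each list as a vertical bar. The median of the 10 cytokine genes is 0.69, that of the receptor genes 0.65 and that of the other interleukins and growth factors 0.59. The remaining lists have medians of -0.14 to 0.15. The genes and lists were chosen with earlier results of these data known.

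CSF3 had the smallest p of the 10 genes. The 5 genes whose log2 CPM over the 6 libraries followed it most closely were GDNF (Pearson r 0.9992), HMOX1 (0.9991), CDR2 (0.9989), RBM15 (0.9987) and ESM1 (0.9984). The 6 libraries fall in 2 separate groups, so these values mainly say that the genes moved with treatment and varied little within it, and 64 genes had an r over 0.99. HMOX1, the gene of heme oxygenase 1, averaged 25.1 CPM with DMSO and 112 CPM with erianin, and ESM1, an endothelial proteoglycan gene, 26.8 and 63.1 CPM.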

How the data were processed

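Total RNA of CAL62 cells was sequenced on a BGISEQ-500 instrument. Raw counts and TPM per gene were deposited by the authors; the submitters' processing notes name fastp 0.23.2, STAR 2.7.10, featureCounts 2.0.1 and StringTie 2.2.1 and the build GRCh38, and the annotation release and strand setting are not given in the sources used here. Of 65807 rows, the 26480 without an identifier (0.00385 to 0.00515% of counts) were left out. The deposited TPM follow counts divided by the summed length of all GENCODE release 29 transcripts of a gene within 1% for 95.3% of 11395 genes and sum to 59.1 to 78.3% of their nominal total, so levels were compared as RPKM over merged exons, a choice made after seeing the data.

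Counts were analysed with edgeR 4.0.16 in R 4.3.3 (TMM, filterByExpr, glmQLFit and glmQLFTest, no block); thresholds were an adjusted p of 0.05 and an absolute log2 fold change of 0.5. SE came from the F statistic. CPM use TMM library sizes. The limit for 0 counts (3 counts) covers counting error only. Counts were also simulated with a coefficient of variation of 0.1, no outlying library and changes of 2-fold or 4-fold. There edgeR recovered 193 of 197 changed genes with 4 false calls over 12718 genes. The data differ in these settings, with a biological coefficient of variation of 0.139, so these rates do not carry over to the calls here. The 10 genes and the lists were chosen with earlier results of these data known. All 10 genes, every receptor, up to 6 called genes per list by adjusted p, and the 5 genes most like the gene of smallest p were named; CASP1, GSDMD, FURIN and RHBDF2 were added after their values were seen. Alternatives were DESeq2 1.42.0, RLE and upper-quartile factors, a minimum of 10 counts per library or no minimum, limma 3.58.1 on log2(TPM + 1) or log2(TPM + 0.1) with a minimum mean TPM of 1 or none, the replicate number as a block, each library left out, and other fold thresholds. The labels do not say whether replicate numbers pair the libraries. No set test was run.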

Additional observations from a re-analysis of the deposited data

How the results depend on the processing

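The directions of all 10 cytokine genes held in every alternative that was run, except that TNF was not tested with a minimum of 10 counts per library, and the calls of CSF1, CSF2 and CSF3 held in all of those with the threshold of 0.5. The number of cytokine genes called higher was 4; it was 7 with limma on log2(TPM + 1) or log2(TPM + 0.1) and 2 with a log2 fold change over 1, and 3 to 7 when 1 library was left out, with 7 without DMSO replicate 3. With no fold threshold 1 gene, LIF, was called lower. IL1A lost its call with the replicate block (log2 0.72), and its values were 0.61 to 0.83 when 1 library was left out. IL1B was called with upper-quartile factors (0.53), with limma on TPM (0.61 with a pseudocount of 1, filtered or not, and 0.67 with 0.1) and without DMSO replicate 3, within a range of 0.39 to 0.56 over libraries left out. TNF was called with upper-quartile factors (1.51), DESeq2 (1.47) and limma on TPM (1.19 with a pseudocount of 1 and 1.75 with 0.1), and ranged from 1.13 to 2.13 over libraries left out. IL1RAP was called with DESeq2 (0.59) and with filtered limma on TPM (0.54 with a pseudocount of 1 and 0.79 with 0.1) but not with the unfiltered one (0.54), and ranged from 0.45 to 0.89 over libraries left out. The causes were not tested.

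Of the list genes, 16 were called higher and 5 lower. The replicate block gave 7 higher and a fold threshold of 1 gave 5 higher and 0 lower; upper-quartile factors gave 3 lower and no fold threshold 8 lower; leaving out 1 library gave 1 to 22 higher and 0 to 8 lower, with the lowest counts when an erianin library was left out. Over all genes, 688 were called higher and 431 lower. Limma on TPM gave 1098, 1207 and, without the filter, 1057 higher and 94, 110 and 88 lower. There 91.6 to 92.3% of calls were higher, against 61.5% in edgeR and 73.3% with upper-quartile factors, and the median of all genes shifted by 0.18, 0.20 and 0.12, so that IL6 at -0.05 on the log2(TPM + 1) scale lay below that shift. No fold threshold gave 986 lower and a threshold of 1 gave 324 higher and 28 lower. Leaving out 1 library gave 172 to 1485 higher and 126 to 797 lower. Same-numbered libraries did not deviate together (correlations 0.00138, 0.0253 and -0.0329). Because DMSO replicate 3 stood far from its group, these values cannot exclude a pairing. The replicate block gave 384 higher and 281 lower. TNF, with 6 to 36 counts per library, and the receptors of the colony-stimulating factors are limited by depth.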
